A study of Mus musculus with 6 samples.

Results

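The genes examined belong to a network of nutrient and stress sensing that is often discussed in work on ageing, 10 in all: the sirtuins Sirt1, Sirt2, Sirt3 and Sirt6, the FOXO factors Foxo1, Foxo3 and Foxo4, the kinase genes Mtor and Prkaa1, and the coactivator gene Ppargc1a. They were chosen by name, with earlier results of these data known. Their probes were found by matching the RefSeq accession of each non-control probe to the gene symbol, which gave 16 probes for all 10 genes, of 41174 non-control probes on the array. Of these, 14 probes of 8 genes were well above background and entered the test, beside 26428 probes in all. Neither the Foxo3 probe nor the Foxo4 probe was well above background on any of the 6 arrays.

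The data were 6 one-colour Agilent whole mouse genome arrays of primary astrocytes from the cerebral cortex of C57BL/6 mice at embryonic day 18, bought as a culture. All cells were transfected at 80 nM, 3 weeks after plating, and harvested 48 h later. The miR-29 group (3 arrays) was given human precursors of the family's 3 members (a, b and c) mixed together, and the control group (3 arrays) a negative control precursor. The labels state a transfection efficiency above 90%, and describe the arrays of a group as repeated RNA extractions, with no word of separate cultures. The p-values here therefore measure no more than the spread of these extracts, which may be technical.

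Sirtuins are enzymes that use NAD to remove acyl groups from proteins, some in the nucleus or cytosol and some in mitochondria. AMPK is a kinase complex that is switched on when cellular energy is low. mTOR is the kinase of complexes that promote growth when nutrients and growth factors are plentiful, and AMPK restrains one of them. FOXO factors drive genes of stress resistance and are kept out of the nucleus when AKT is active, and PGC-1alpha, the product of Ppargc1a, coactivates genes of mitochondrial biogenesis downstream of AMPK and SIRT1. In astrocytes these routes act on glucose and lipid metabolism.

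A microRNA recognises its targets mainly through its seed, bases 2 to 8. The mature mouse forms of the family are shown because the comparison rests on them. They are given 5′ to 3′ from RefSeq (GRCm38.p6), with the seed in capitals.
mmu-miR-29a-3p: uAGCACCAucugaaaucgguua
mmu-miR-29b-3p: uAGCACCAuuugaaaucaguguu
mmu-miR-29c-3p: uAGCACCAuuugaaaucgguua
All 3 share the seed AGCACCA, so the mixture presents 1 seed to the cells. The files used here hold no probe or transcript sequences, and matches to this seed in the 10 genes were not searched.

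Levels are given as the log2 of the processed signal minus the 75th percentile of the same array, so that 0 is the signal of a probe at that percentile. Fold changes are on this log2 scale, miR-29 minus control, with the standard error (SE) of a limma fit over all 26428 probes. Adjusted p-values are Benjamini-Hochberg values from that fit, two-sided, and a probe was called at an adjusted p under 0.05. With so many probes called in this comparison, a call alone is common: 35.3% of all probes were called higher and 22.7% lower. Levels of different probes are not compared, since each probe has its own response.

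As far as the whole series bears on these genes, 61.9% to 66.8% of probes per array passed the scanner's background flag, and 0 non-control spots were saturated. Control replicates 2 and 3 were on slide 2, and the other 4 arrays on slide 1. Scaling the arrays to the 5 detected spike-in types in place of the 75th percentile moved the fold of all probes by -0.24, from a median of 0.072 to -0.16, and the share of calls that were higher from 60.9% to 30.1%. The cultures expressed astrocyte markers: of 10, only Gjb6 stayed below that flag throughout. Of the 9 tested, 5 were called higher by their brightest probe and Gja1 was called lower (-0.34). Aqp4, S100b and the brightest Slc1a2 probe did not pass, though the other Slc1a2 probes were called higher. The brightest markers of this list were Aldh1l1 and Fabp7, both called higher (0.74 and 1.31). The summed signal of the astrocyte list, in multiples of the 75th percentile, was 33.6 to 34.9 for the control group and 57.0 to 60.3 for the miR-29 group. That of 11 fibroblast, meningeal and mural markers was 344 to 386 and 547 to 594 for the same groups, with Rgs5 and Vtn never above background. The brightest of these were Acta2, Tagln and Cnn1, each called higher, while Pdgfrb (-0.67) and Cspg4 (-1.72) were called lower and Dcn did not pass. For 8 microglia markers the sum was 3.17 to 3.42 after miR-29 against 4.24 to 4.77 in the controls, nearly all of it from Tmem119 (fold -0.43, called lower). Csf1r was called lower by its brightest probe and higher by another, P2ry12 was called higher (0.53), and Aif1, Cx3cr1, Ptprc and Trem2 were never above background. For 9 endothelial markers it was 2.04 to 2.12 against 2.90 to 3.27, with Ly6c1, Slco1a4 and Flt1 called lower, Kdr and Vwf called higher and Tek never above background. For 12 neuron markers it was 5.21 to 5.33 against 5.39 to 5.59, with each of them above background on at least 1 array. For 10 oligodendrocyte lineage markers it was 7.45 to 7.90 against 7.44 to 12.01, with Mog never above background. The part of these shifts in the results was not tested, and in such bulk RNA fewer cells of a type and less RNA per cell cannot be told apart.

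Among the members, 5 of the 8 genes with a kept probe were higher after miR-29 by their brightest probe, 0 were lower and 3 did not pass, where 62.4% of all named genes were called either way and the groups of 71% did not overlap: Sirt2, Sirt3, Mtor, Prkaa1 and Ppargc1a rose, and Sirt1, Sirt6 and Foxo1 did not pass. Over all 13717 named genes 37.8% were higher and 24.5% lower. By brightest probe the median fold of the 8 genes was 0.23, against 0.071 over all named genes, and 0 of the 8 changed 2-fold. The other Ppargc1a probe, A_51_P279038, rose 2.09-fold, and the mean of both Ppargc1a probes gave a log2 fold of 0.63. Counted by probe, 8 of 14 were higher, 0 were lower and 6 did not pass, where 58% of all probes were called either way. The limma fit also found 0 of the 14 lower at an unadjusted p under 0.05, and 8 higher. The groups did not overlap for 10 of the 14 probes, against 66% of all probes. These counts depended on the scaling: with the spike-in types 0 of the 8 genes were higher and 2, Sirt6 and Foxo1, were lower, and of the 14 probes 1 was higher and 4 were lower. Of all 26428 probes, 4149 were higher and 9631 lower with that scaling.

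**Figure D1:**
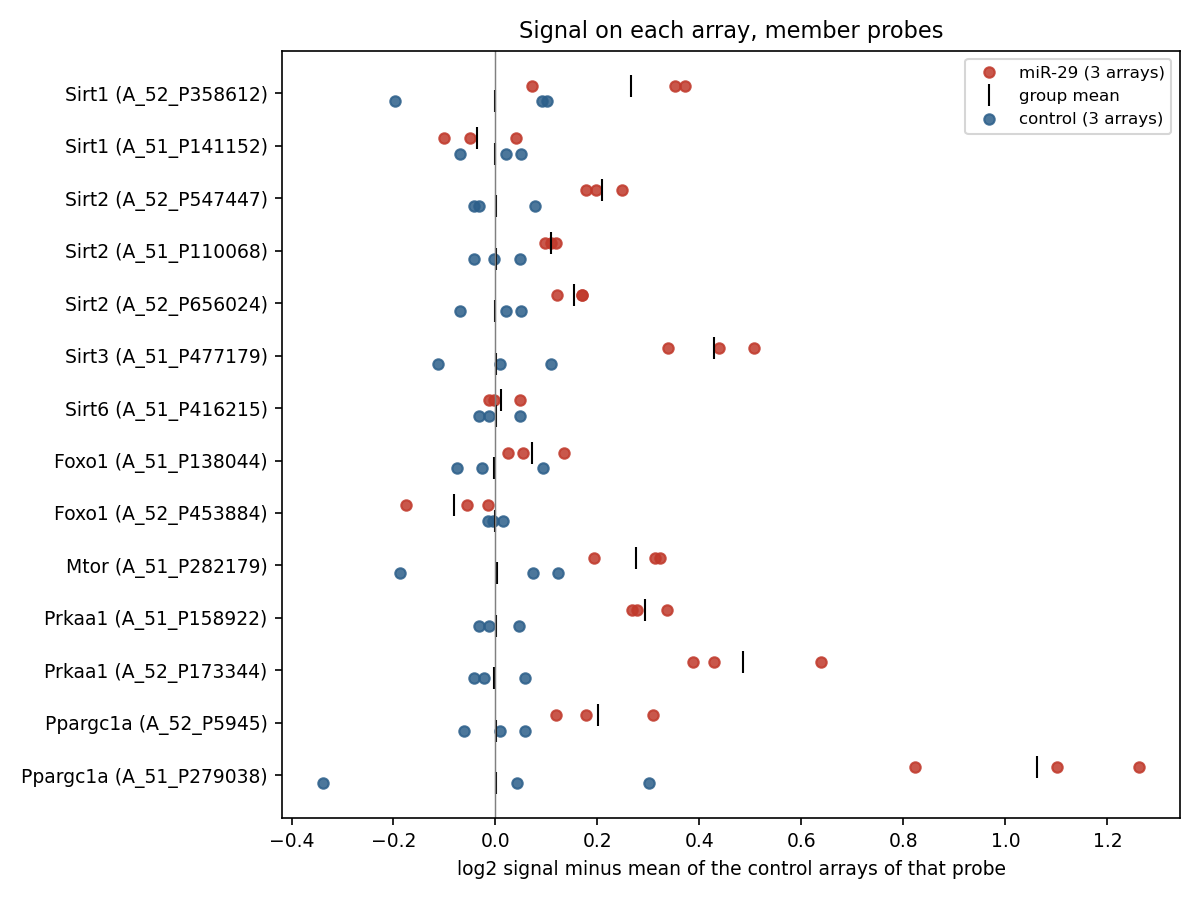
Log2 signal on each array minus the mean of the control arrays of the same probe (horizontal axis), for the 14 kept member probes; points are arrays (red, miR-29; blue, control) and vertical ticks the group means. The miR-29 arrays of the Ppargc1a probe A_51_P279038 sit farthest to the right, those of Sirt3 and of both Prkaa1 probes are all above their control arrays, and the groups of Sirt6 overlap.

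The largest difference among the members was that of 1 probe of Ppargc1a, the gene of PGC-1alpha. With probe A_51_P279038 the level was -1.75, -1.91 and -2.19 in the miR-29 group and -2.71, -2.97 and -3.35 in the control group. All miR-29 arrays were therefore above all control arrays. The gap was wider than the spread within the miR-29 group and narrower than that within the control group. Ppargc1a rose by 1.06 with this probe (SE 0.187, adjusted p = 0.00395), a 2.09-fold difference that lies at percentile 97.3 of all probe folds. The call held in all 16 other tests, over which the fold ran from 0.65 to 1.21. The lowest value came from normexp background correction, whose offset shrinks the folds of dim probes. With control replicate 1, from slide 1, as the sole control array the fold was 0.76.

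The other Ppargc1a probe, A_52_P5945, which is the brighter on average over the arrays, gave a far smaller difference. Its level was -2.09, -1.96 and -2.15 in the miR-29 group and -2.21, -2.33 and -2.26 in the control group. The groups again did not overlap, but by a narrow margin, and the fold was 0.20 (SE 0.0678, adjusted p = 0.0420). At the 0.05 threshold the probe passed in 5 of 16 other tests (adjusted p from 0.0340 to 0.760). It did not pass without miR-29 replicate 1 or 2, nor without control replicate 2 or 3, and the fold was -0.032 with spike-in scaling. Within each array, the second probe minus the first was -0.34, -0.05 and 0.04 after miR-29 and 0.51, 0.64 and 1.09 in the controls. The folds of the probes thus differed by 0.86, with no overlap between groups (exact two-sided permutation p = 0.1, the smallest that 3 against 3 allows; adjusted p = 0.233 over 7 probe pairs). Where the probes lie in the transcript is not given in the files used here.

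A promoter window of Ppargc1a is shown because this gene had the largest member difference. CREB, a factor that responds to cyclic AMP, is known to act on the gene through a cyclic AMP response element. The 250 bases before the RefSeq start used here lie at chr5:51567726-51567975 on the minus strand (GRCm38.p6), and are printed 5′ to 3′ on the strand of the gene. Capitals mark a match to the half-site TGACGT of such elements, which lies on the opposite strand and so reads ACGTCA here. Whether this match is the site known for CREB, or this start the one that site serves, was not tested. Other starts of the gene were not examined.
Ppargc1a promoter: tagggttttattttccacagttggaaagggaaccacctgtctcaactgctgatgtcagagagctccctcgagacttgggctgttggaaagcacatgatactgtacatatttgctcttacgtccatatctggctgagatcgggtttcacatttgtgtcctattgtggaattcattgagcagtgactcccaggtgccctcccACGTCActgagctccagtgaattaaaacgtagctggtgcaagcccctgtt
Searched on both strands, TGACGT was in 6.47% of 32851 promoter windows of the same length, and among the members, of which 9 have a window, in that of Ppargc1a alone. The full element TGACGTCA, which contains the half-site, was in 1.55% of windows and in 0 of 11 member windows. The half-site AAGGTCA of oestrogen-related receptors, partners of PGC-1alpha, was in 4.08% of windows, and the FOXO core GTAAACA in 3.17%, both in 0 of 11 member windows. These are matches of letters, and the arrays did not measure binding.

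Of the sirtuins among the members, Sirt3, the main deacetylase of mitochondria, rose most. Its single probe read 2.88, 2.95 and 2.78 in the miR-29 group and 2.55, 2.45 and 2.33 in the control group. Every miR-29 array exceeded every control array. The fold was 0.43 (SE 0.0756, adjusted p = 0.00392), which is 1.35-fold, and 0.33 against the slide 1 control array. The call held in 15 of 16 other tests and was lost with spike-in scaling (0.19, adjusted p = 0.0621).

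Sirt2, a mainly cytosolic tubulin deacetylase, has 3 probes, and each was slightly higher after miR-29. The brightest, A_52_P547447, read 2.02, 2.09 and 2.04 after miR-29 and 1.92, 1.81 and 1.80 in the controls. The groups did not overlap, and the fold was 0.20 (SE 0.0559, adjusted p = 0.0213). Probe A_52_P656024 had a fold of 0.15 (adjusted p = 0.0469), which passed in 3 of 16 other tests, and A_51_P110068 one of 0.11, which did not pass (adjusted p = 0.0869). The call of the brightest probe was lost in the slide block fit (0.12, adjusted p = 0.143) and without any single array other than control replicate 1 (0.18 to 0.22, adjusted p = 0.0507 to 0.0739). With spike-in scaling all 3 probes lay below 0, from -0.12 to -0.031.

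Sirt1, the nuclear deacetylase that acts on FOXO factors and PGC-1alpha, did not pass with either probe. Probe A_52_P358612 read -1.28, -1.26 and -1.56 after miR-29 and -1.53, -1.54 and -1.83 in the controls. Here miR-29 replicate 3 lay below control replicates 1 and 2, so the groups overlapped. The fold was 0.26 (SE 0.120, adjusted p = 0.105), with a 95% interval of -0.030 to 0.56. Without miR-29 replicate 3 it was 0.36 and passed (adjusted p = 0.0446), without control replicate 3 it was 0.16 (adjusted p = 0.266), and in the slide block fit it was 0.16 (adjusted p = 0.479). The other probe gave -0.039 (adjusted p = 0.606, 95% interval -0.19 to 0.11), with overlapping groups.

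Sirt6, a chromatin-bound deacetylase linked to telomere and DNA repair, read -3.78, -3.84 and -3.83 after miR-29 and -3.78, -3.86 and -3.84 in the controls. The groups overlapped over their whole range. The fold was 0.015 (SE 0.0485, adjusted p = 0.809), with a 95% interval of -0.10 to 0.13 under this scaling. That interval covers only the spread of these extracts, and the single probe is dim (processed signal 34.6 to 46.2). With spike-in scaling Sirt6 was lower (-0.22, adjusted p = 0.0221).

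The 3 sirtuins outside the named members were all higher, and all stayed so with spike-in scaling. Sirt5, a mitochondrial enzyme that removes succinyl and malonyl groups, rose by 0.89 (SE 0.0464, adjusted p = 5.66e-05; 0.66 with spike-in scaling). Its level was 1.3, 1.29 and 1.32 in the miR-29 group and 0.45, 0.41 and 0.37 in the control group. That gap is many times the spread within either group. Sirt4, another mitochondrial sirtuin, rose by 0.56 (SE 0.0582; 0.32 with spike-in scaling), and Sirt7, a nucleolar one, by 0.54 (SE 0.0468; 0.53 by the other probe, and 0.31 with spike-in scaling). The calls of these 3 genes held in all 16 other tests. Across the family, 5 of 7 sirtuins were higher, 0 were lower and 2 missed the threshold (median 0.43), where 37.8% of all named genes were higher. Scaled to the spike-in types, 3 of the 7 were higher and 1, Sirt6, was lower. The mitochondrial sirtuins Sirt3, Sirt4 and Sirt5 were among those that rose, Sirt3 with the 75th percentile scaling and not with the spike-in types.

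The NAD list, whose genes supply or use the substrate of sirtuins, went both ways: 4 of 6 tested were higher and 2 lower, with a median of 0.24, and scaled to the spike-in types 0 were higher and 2 were lower. Cd38, a gene of an NAD-consuming surface enzyme, fell by 0.98 (SE 0.0677, adjusted p = 0.000126; -0.81 by the other probe). Nmnat2, which makes NAD in the cytosol, fell by 0.49 (SE 0.124), a call lost with normexp (-0.19, adjusted p = 0.0508) and in the slide block fit (-0.44, adjusted p = 0.109), and that its other probe did not show (0.11, adjusted p = 0.350). The salvage enzyme gene Nampt rose by 0.33 (SE 0.0603), with 0.40 and 0.18 (adjusted p = 0.0891) for its other probes. Nmnat3, assigned to mitochondria, rose by 0.34 (SE 0.0438). Both rises were lost with spike-in scaling (0.091 and 0.11).

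Foxo1 did not pass with either probe, and its probes pointed opposite ways. Probe A_51_P138044 read 1.99, 1.91 and 1.88 after miR-29 and 1.95, 1.83 and 1.78 in the controls, with overlapping groups. The fold was 0.069 (SE 0.0646, adjusted p = 0.389, 95% interval -0.089 to 0.23). The other probe, A_52_P453884, read 1.35, 1.19 and 1.31 after miR-29 and 1.35, 1.36 and 1.38 in the controls, for a fold of -0.086 (SE 0.0582, adjusted p = 0.245, 95% interval -0.23 to 0.056). These groups did not overlap, though miR-29 replicate 1 and control replicate 1 are equal at the precision given. With spike-in scaling both were lower (-0.17 and -0.32, adjusted p = 0.0471 and 0.0109). Foxo6, the FOXO factor outside the members, rose by 0.47 (SE 0.112, adjusted p = 0.0125), a call that did not hold with spike-in scaling (0.24, adjusted p = 0.105) and in the slide block fit (0.45, adjusted p = 0.0823).

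Foxo3 read -6.24, -6.16 and -8.04 after miR-29 and -7.86, -6.50 and -6.93 in the controls, and Foxo4 -7.39, -6.48 and -7.90 against -7.19, -5.67 and -6.02. The groups overlapped for both. Since neither probe was well above background on any array, no fold is given for Foxo3 or Foxo4. The low signal is that of 1 probe each, and says nothing certain of the level of these transcripts.

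Genes listed here as targets of FOXO factors went both ways: of 16 tested 6 were higher, 6 lower and 4 missed the threshold (median 0.083). The shares over all named genes were 37.8% higher and 24.5% lower. The list was not sorted by whether FOXO factors raise or lower each gene, so these counts do not measure FOXO activity. With spike-in scaling 1 was higher and 7 were lower. Pdk4, a kinase that keeps pyruvate out of mitochondria, fell by 0.80 (SE 0.0613, adjusted p = 0.000172), and the growth arrest gene Gadd45a by 0.56 (SE 0.0787). Txnip, an inhibitor of thioredoxin, fell by 0.47 (SE 0.0599; -0.25 by the other probe), and the glucose phosphatase gene G6pc3 rose by 0.63 (SE 0.0511). The calls of these 4 genes held in all 16 other tests. The arm of insulin receptor, PI3 kinase and AKT, which restrains FOXO factors, was also divided: of 14 tested 4 were higher, 6 lower and 4 did not pass. Pik3r2, a regulatory subunit of PI3 kinase, rose by 1.40 (SE 0.0591, adjusted p = 3.92e-05), and Pdpk1, the kinase that activates AKT, by 0.82 (SE 0.0971; 0.58 and 0.98 with its other probes). Sgk1, an AKT-related kinase that also phosphorylates FOXO3, fell by 0.80 (SE 0.0535), and the catalytic subunit gene Pik3cb by 0.74 (SE 0.0634). These 4 calls held in all 16 other tests too.

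Mtor read 0.93, 0.81 and 0.94 in the miR-29 group and 0.43, 0.69 and 0.74 in the control group. The groups did not overlap, and control replicate 1 was the lowest. The fold was 0.27 (SE 0.0946, adjusted p = 0.0465). It was 0.46 in the slide block fit, that is against control replicate 1, and 0.18 without that array (adjusted p = 0.0478). The call was near the threshold: at 0.05 it passed in 6 of 16 other tests, and not without any 1 of the 3 miR-29 arrays or without control replicate 2 (0.25 to 0.32, adjusted p = 0.0646 to 0.123), and the fold was 0.039 with spike-in scaling (adjusted p = 0.803).

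Of 8 further genes of mTOR complexes 1 and 2, 0 were higher by their brightest probe, 5 lower (24.5% of all named genes were lower) and 3 missed the threshold (median -0.27). After spike-in scaling 0 were higher and 6 were lower. Mapkap1, which encodes the complex 2 subunit SIN1, fell by 0.66 (SE 0.0539, adjusted p = 0.000218), as with 1 other probe (-0.64), while a further probe did not show it (-0.062, adjusted p = 0.555). Deptor, an inhibitor of mTOR, fell by 0.62 (SE 0.0633), and Prr5l, a partner of complex 2, by 0.55 (SE 0.0858). With normexp these dim probes fell by 0.32 and 0.29. Rptor, the scaffold that defines complex 1, fell by 0.31 (SE 0.0522, adjusted p = 0.00317; -0.32 by the other probe). Its level was 2.11, 2.09 and 2.15 after miR-29 and 2.37, 2.49 and 2.44 in the controls, with no overlap. The calls of these 4 genes held in all 16 other tests. Rictor, the scaffold of complex 2, fell by 0.23 with its brightest probe (SE 0.0651, adjusted p = 0.0232), but another probe rose by 0.50 (adjusted p = 0.0274), a further one gave 0.11 (adjusted p = 0.666), and at 0.05 the brightest probe passed in 9 of 16 other tests, and not without miR-29 replicate 1 or 2 (-0.22 and -0.19) or without control replicate 2 (-0.23). Mlst8, Akt1s1 and Prr5 had 0.10, 0.053 and -0.064 (adjusted p = 0.204, 0.426 and 0.354).

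Among 17 regulators of mTOR complex 1, 7 were higher, 4 lower and 6 missed the threshold (median 0.038; 3 higher and 7 lower after spike-in scaling). Rragd, a Rag GTPase of the lysosomal amino acid signal, rose by 1.08 (SE 0.0665, adjusted p = 8.83e-05; 0.97 by the other probe). Ddit4, a stress-induced inhibitor of the complex, rose by 0.56 (SE 0.0682). Lamtor3, a subunit of the lysosomal anchor of the Rag GTPases, fell by 0.76 (SE 0.0779). The arginine sensor gene Castor1 had a fold of -0.755 (SE 0.0583), also lower. Of 9 genes listed as outputs of the complex, 2 were higher, 2 lower and 5 did not pass by their brightest probe. After spike-in scaling 0 were higher and 2 lower. Rps6kb1 and Eif4ebp1 were among those that did not pass (0.13 and 0.071). For each of them 1 other probe was called lower (-0.42 for both, adjusted p = 0.00132 and 0.00425), and a further Rps6kb1 probe gave 0.24 (adjusted p = 0.0907). Tfeb, a factor for lysosomal genes, fell by 0.42 (SE 0.0612), a call that did not hold with normexp (-0.14, adjusted p = 0.167), and the autophagy kinase gene Ulk1 fell by 0.33 (SE 0.0567; -0.35 by the other probe). Its relative Ulk2 rose by 0.26 (SE 0.0655; 0.23 by the other probe, adjusted p = 0.135), and the cap-binding protein gene Eif4e by 0.25 (SE 0.0433; 0.17 by the other probe). Spike-in scaling took both rises to near 0 (0.025 and 0.012), and that of Ulk2 was also lost without miR-29 replicate 2 (0.23, adjusted p = 0.0566).

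Prkaa1, the gene of the catalytic subunit alpha 1 of AMPK, rose with both probes. The brighter, A_51_P158922, read 2.61, 2.62 and 2.68 in the miR-29 group and 2.39, 2.33 and 2.31 in the control group. The dimmer, A_52_P173344, read -0.84, -0.88 and -0.63 against -1.31, -1.29 and -1.21. With either probe every miR-29 array was above every control array. The folds were 0.29 (SE 0.0503, adjusted p = 0.00357) and 0.49 (SE 0.0802, adjusted p = 0.00307), or 1.22-fold and 1.40-fold. They differed by 0.19 within arrays, with no overlap (exact two-sided permutation p = 0.1, adjusted p = 0.233 over the 7 probe pairs). Both calls held in 15 of 16 other tests and were lost with spike-in scaling (0.058 and 0.25, adjusted p = 0.529 and 0.0967).

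The other AMPK subunits did not move as one: of 5 tested 2 were higher, 0 lower and 3 did not pass. Prkaa2, the catalytic subunit alpha 2, rose by 0.48 (SE 0.0564, adjusted p = 0.000794), and this call was lost with normexp (0.22, adjusted p = 0.0617). Its level was -3.69, -3.62 and -3.59 after miR-29 and -4.06, -4.18 and -4.1 in the controls, with no overlap. Prkag2, a regulatory subunit that binds AMP, rose by 0.48 (SE 0.0918, adjusted p = 0.00534; 0.25 with spike-in scaling, adjusted p = 0.131). The scaffold subunits Prkab1 and Prkab2 had 0.050 and -0.18 (adjusted p = 0.418 and 0.0927), and Prkag1 -0.061 (adjusted p = 0.388). Prkab2 passed as lower in the slide block fit (-0.32, adjusted p = 0.0186), with the deposited table (-0.23, adjusted p = 0.0291) and with spike-in scaling (-0.42, adjusted p = 0.00208). Prkag1 also passed as lower with spike-in scaling (-0.30, adjusted p = 0.00544).

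**Figure D2:**
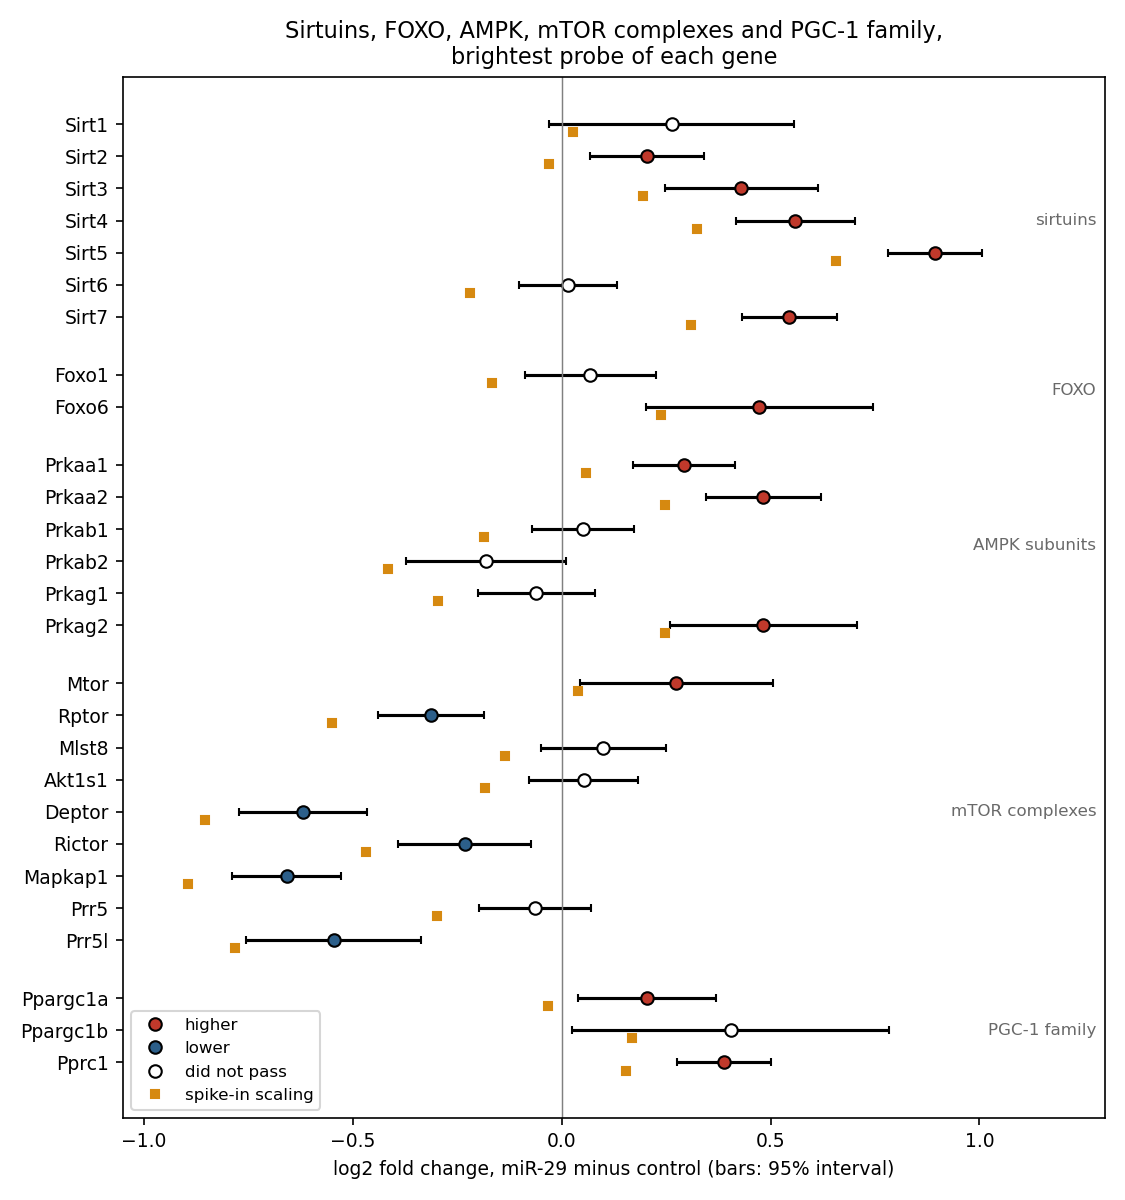
Log2 fold change, miR-29 minus control, of the brightest probe of each tested sirtuin, FOXO, AMPK, mTOR complex and PGC-1 family gene, with 95% intervals from the limma fit; filled points passed the test (red higher, blue lower) and orange squares give the same fold with spike-in scaling. Sirt5 is the highest at 0.89, Mapkap1 the lowest at -0.66, and 5 of the 9 mTOR complex genes lie in blue while Mtor lies in red.

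Of 7 genes that activate AMPK or build its upstream kinase complex, 2 were higher, 1 lower and 4 did not pass. Strada, a pseudokinase partner of the upstream kinase LKB1, rose by 0.46 (SE 0.0515; 0.15 by the other probe, adjusted p = 0.149). Its relative Stradb fell by 0.41 (SE 0.0636; -0.16 by the other probe, adjusted p = 0.0590), and the kinase gene Map3k7 rose by 0.41 (SE 0.0741; 0.17 with spike-in scaling, adjusted p = 0.186). Of 9 substrates of AMPK 5 were higher and 4 lower, where 62.4% of all named genes were called either way. Scaled to the spike-in types, 2 were higher and 4 were lower. Acacb, the acetyl-CoA carboxylase that controls fatty acid entry into mitochondria, rose by 1.303 (SE 0.0829, adjusted p = 9.57e-05). Its level was -0.53, -0.54 and -0.64 after miR-29 and -1.74, -1.87 and -2.01 in the controls, so the groups were far apart. Tbc1d4, a regulator of glucose transporter traffic, rose by 0.83 (SE 0.150; 1.02 and 0.22 with its other probes, the latter not past the threshold), and Tbc1d1 fell by 0.37 (SE 0.0962; -0.53 by the other probe). The Tbc1d1 call was lost without miR-29 replicate 2 (-0.29, adjusted p = 0.0509).

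Among the PGC-1 family and its partners 7 of 13 tested genes were higher, 2 lower and 4 missed the threshold (median 0.27), against 3 higher and 3 lower with spike-in scaling. Ppara, a nuclear receptor for fatty acid oxidation that PGC-1alpha coactivates, rose by 1.90 (SE 0.0920, adjusted p = 4.92e-05). Its level was -3.47, -3.32 and -3.56 after miR-29 and -5.47, -5.22 and -5.34 in the controls, and it was above background on 2 of the 3 control arrays. With normexp the fold of this dim probe was 0.55. Tfb1m, a methyltransferase of mitochondrial ribosomal RNA, rose by 1.55 (SE 0.0560), and Mef2c, a transcription factor that acts with PGC-1alpha, by 1.47 (SE 0.121; 0.88 with normexp). The calls of Tfb1m and Mef2c held in all 16 other tests, and that of Ppara in the 15 that could be run. The filter that asks for a signal well above background on every array drops the Ppara probe, so it gave no test of this call. The probe was kept through the miR-29 group, where it was above background on all 3 arrays. Pprc1, a relative of PGC-1alpha, rose by 0.39 (SE 0.0463; 0.15 with spike-in scaling, adjusted p = 0.0974). Ppargc1b, the closest relative, had 0.40 and did not pass (SE 0.156, adjusted p = 0.0655), but did so without miR-29 replicate 3 (0.55, adjusted p = 0.0197), and its other probe gave -0.13 (adjusted p = 0.0966).

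**Figure D3:**
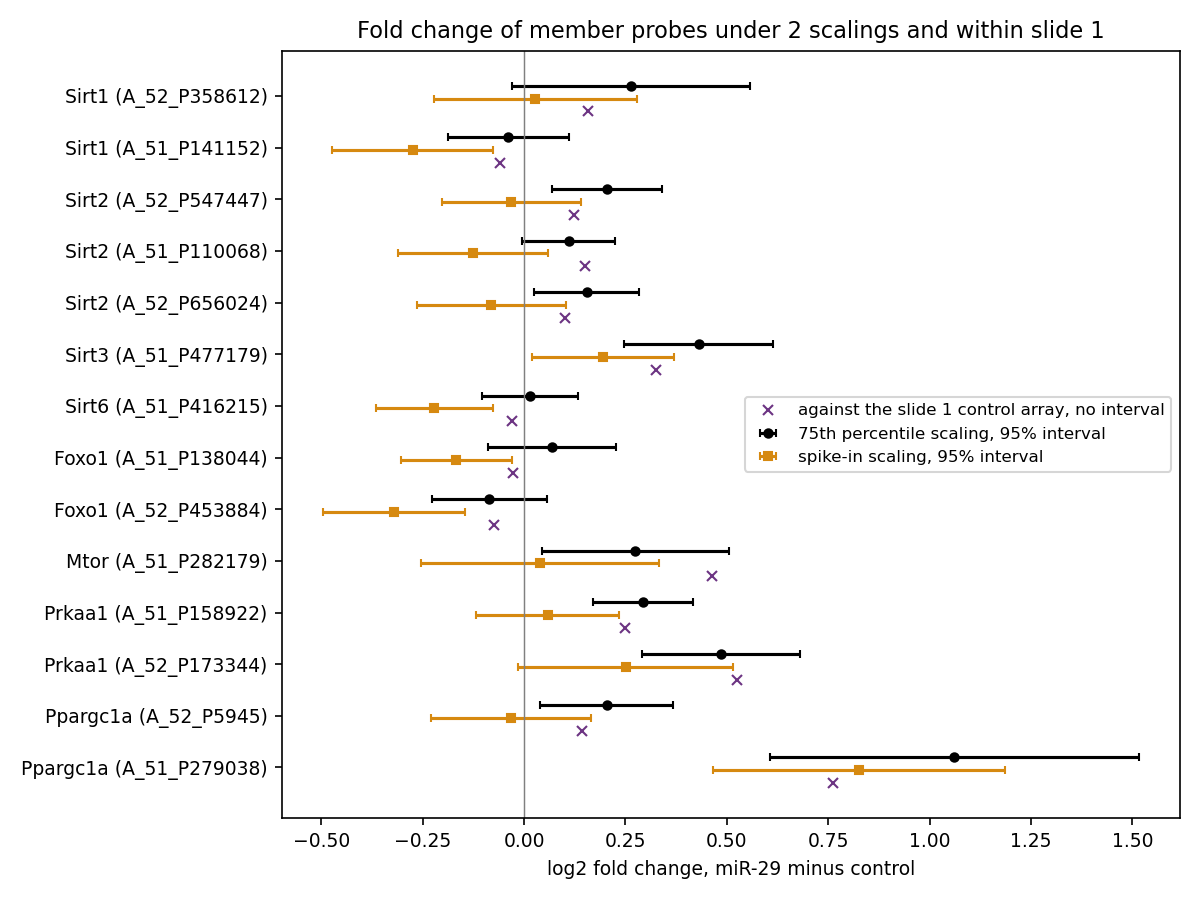
Log2 fold change of the 14 kept member probes: black circles with the 75th percentile scaling and orange squares with spike-in scaling, both with 95% intervals, and purple crosses the miR-29 arrays against control replicate 1 on the same slide, with no interval. With spike-in scaling the interval of the Ppargc1a probe A_51_P279038 stays well above 0, whereas the folds of Sirt2 and of the other Ppargc1a probe move to about 0.

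**Figure D4:**
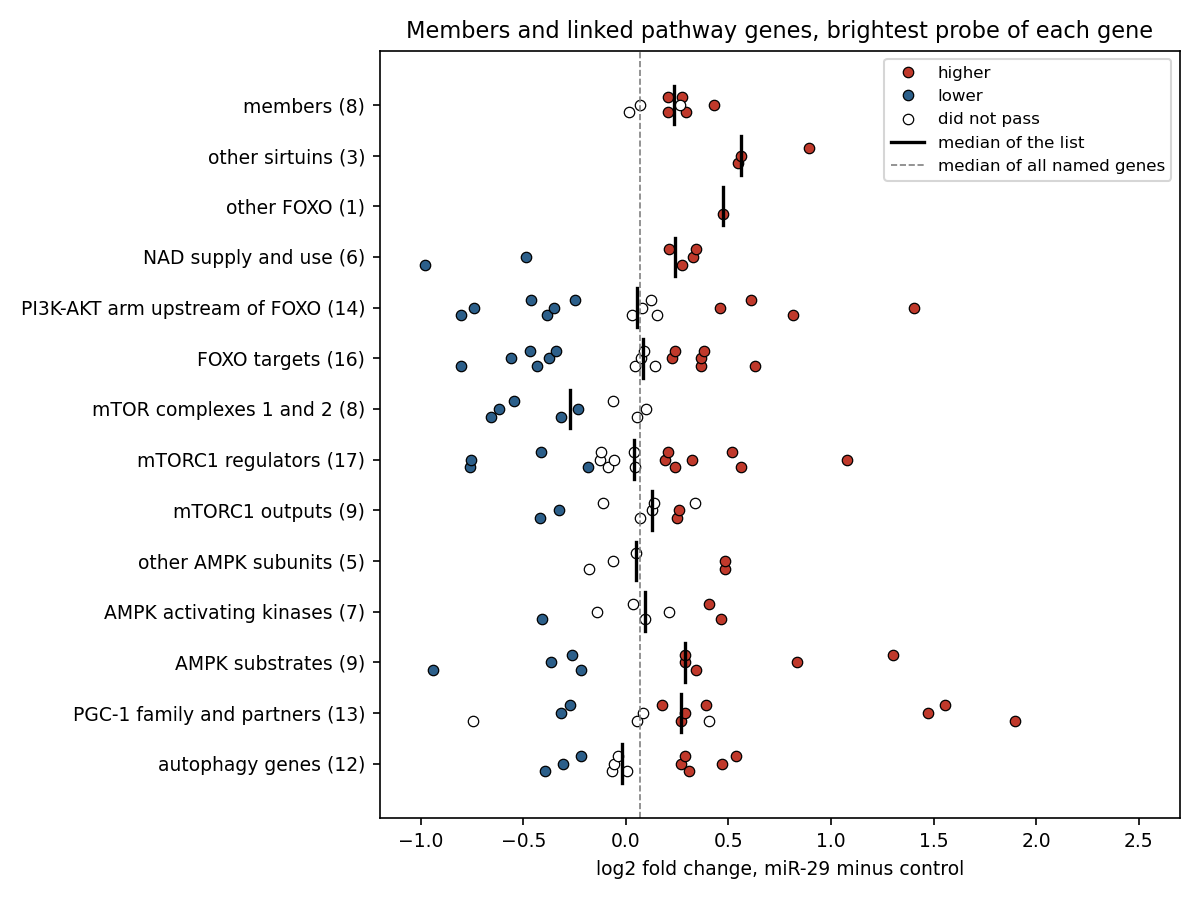
Log2 fold change of the brightest probe of each tested gene by list, with the number tested in brackets; red points were higher, blue lower and white did not pass, black ticks are list medians and the dashed line is the median of all named genes, 0.071. The members lie between 0.015 and 0.43, the mTOR complex list has its median at -0.27, and Ppara lies at 1.90, a fold that was 0.55 with normexp.

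Over all 13 lists of linked genes, 120 genes were tested, of which 48 were higher, 35 lower and 37 missed the threshold (median 0.083). As shares these counts lie near those of all named genes (37.8% higher, 24.5% lower). Scaled to the spike-in types, 19 were higher and 48 were lower.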

How the data were processed

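Each of 6 RNA extracts was hybridised to 1 array. Per the file headers, the authors extracted spot intensity with Agilent Feature Extraction 10.7.3.1 (10.7 in the submitters' processing notes) on a design annotated on mm9. The authors' deposited value table is that intensity multiplied by 1 factor per array (2.63 to 3.43), linear and not centred, with medians of 149.3, 155.4 and 148.8 (miR-29) and 146.3, 164.8 and 162.2 (control). How they chose it stays unknown. There were 0 columns of other samples.

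Processed signals under 1 were set to 1, put on the log2 scale and lowered by the 75th percentile of the array. Spots of a probe were averaged after dropping controls and flagged outliers. A probe well above background on all 3 arrays of a group was kept. Unversioned RefSeq accessions gave 1 symbol for 26933 probes and none for 14241. Groups were compared with limma 3.58.1 (lmFit, eBayes) in R 4.3.3, a procedure tested on simulated data. A gene takes the call of its brightest kept probe. Members and lists were chosen with earlier results of these data known. Of each list, up to 4 called genes with the largest fold were named; 1 gene so chosen is not reported here. The remaining subunits, Rictor, Mlst8, Akt1s1, Prr5, Prkab1, Prkab2, Prkag1 and Ppargc1b, were named after their values were seen. So were Rps6kb1 and Eif4ebp1. Of 129 listed genes, 5 had no matched probe and 4 no kept probe. The alternatives were other background corrections, scalings, filters, probe rules, variance models and thresholds, the deposited table, a block for slide or for replicate number, and each array left out. Normexp used median spot signals.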

Additional observations from a re-analysis of the deposited data

How the results depend on the processing

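The number of arrays limits the precision, and the calls of small folds moved with most choices. Of 14 member probes 8 were higher; the count was 5 with normexp, with median centring, with the deposited table and with the slide as a block, 4 without a filter and at an adjusted p under 0.01, and 1 with spike-in scaling, where 4 were lower. By gene, 5 were higher; the count was 3 with median centring, with the deposited table and with the slide as a block, 2 without a filter and at an adjusted p under 0.01, and 0 with spike-in scaling, where 2 were lower. Of all 26428 probes 9330 were higher. That count was 7430 with normexp, 8275 with median centring, 8154 with the deposited table and 7296 with the slide as a block. It was 8422 of 41174 without a filter, 6415 at an adjusted p under 0.01 and 4149 with spike-in scaling, where 9631 were lower. Leaving out 1 array gave 4 to 8 higher and 0 lower probes, 2 to 5 higher and 0 lower genes, and 41 to 50 higher and 29 to 34 lower pathway genes. Those runs gave 7593 to 9867 higher and 4908 to 7407 lower over all probes. Pathway genes went from 48 to 19 higher with spike-in scaling. With the replicate block 6 probes and 4 genes were higher, and the block let Sirt1 (A_52_P358612; 0.26, adjusted p = 0.0121), Ppargc1b (0.40, adjusted p = 0.00697) and, as lower, Prkab2 (-0.18, adjusted p = 0.0441) pass. Deviations of same-numbered arrays correlated at 0.14, 0.099 and 0.27, and 6 of 6 arrays correlated best with their own number, so the numbers are no more than a hint of pairing.

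Reversed signs were limited to small folds. Spike-in scaling gave -0.031, -0.12 and -0.081 for the Sirt2 probes, -0.22 for Sirt6, -0.17 for Foxo1 (A_51_P138044), -0.032 for Ppargc1a (A_52_P5945), and -0.19, -0.14 and -0.18 for Prkab1, Mlst8 and Akt1s1. Sirt6 was -0.022 with normexp, -0.039 in the deposited table, -0.030 with the slide as a block, and -0.0036 to 0.037 without 1 array. Foxo1 was -0.027 with the slide as a block and -0.00841 as the mean of its probes. The deposited table gave -0.0036 for Prkab1 and -0.00111 for Akt1s1. Of 46 called pathway genes chosen for naming, 32 kept their call in every setting in which they were tested. For Ppara, which is among these, the filter for signal on every array gave no test. Why the spike-in scaling differs from the others was not tested.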

Other observations

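Autophagy genes, which stand downstream of AMPK, mTOR and FOXO factors, were mixed. Of 12 tested 5 were higher, 3 were lower and 4 missed the threshold (median -0.016). Scaled to the spike-in types, 2 were higher and 7 were lower. Becn1, a subunit of the lipid kinase that starts autophagosomes, rose by 0.54 (SE 0.0666, limma adjusted p = 0.00101), and the cargo receptor gene Sqstm1 by 0.47 (SE 0.0485). Atg12, a ubiquitin-like conjugate of the autophagy machinery, fell by 0.39 with its brightest probe (SE 0.0542), while its other probes did not pass (0.046 and -0.12). Atg7 rose by 0.31 (SE 0.0748), which did not pass in the slide block fit (0.18, adjusted p = 0.106) or after spike-in scaling (0.071).

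Several genes of these pathways had probes that disagreed in call or direction, among them Sirt2, Mapkap1 and Rictor. The Ppargc1a probes were both called higher and differed in the size of the fold. The cause was not tested.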
